A study of Mus musculus with 63 samples.

Results

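Neural progenitor cells (NPCs) made from mouse R1 embryonic stem cells were compared between lines lacking the promoter of the Meteor long non-coding RNA (pKO1 and pKO2) and wild-type lines (WT1 and WT2). The comparison took every library labelled NPC from these 4 lines, 3 per line, which came to 12 of the 63 libraries of the series. All 4 lines share the R1 background, and the labels give no other allele or agent. Cells were passaged in serum medium without feeders, reseeded in N2 and B27 medium, and collected after 4 days, and polyadenylated RNA was sequenced. A line with the promoter inverted (pInv, 3 NPC libraries) and the same 4 lines in serum and in 2i medium (12 libraries each) served as side comparisons. Whether a line is 1 clone is not stated, and nothing says that the 3 libraries of a line came from separate cultures. The p-values therefore measure the spread between libraries of a line, which may be technical, and not the spread between lines.

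Eomes, named in the series title together with Meteor, encodes a T-box transcription factor that opens the mesoderm and endoderm programmes of the primitive streak. Nodal, a TGF-beta family ligand, acts through its co-receptor and SMAD2/3 to switch on Eomes, the Lefty inhibitors and Nodal itself. Cells that take the neural path in N2 and B27 medium normally shut this signalling down, since Nodal and Wnt signalling divert epiblast-like cells to the streak.

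The 12 libraries held 10035831 to 18553323 estimated counts each. Levels are CPM, counts scaled by library size, unless stated, and changes are log2 fold changes with their standard error (SE) from edgeR's quasi-likelihood test, called at a Benjamini-Hochberg adjusted p under 0.05 over all genes tested. The labelled cell type had its markers beside those of the starting cells. Sox1, a neural plate transcription factor, ran from 58.7 to 304 CPM in WT NPCs and from 35 to 229 in pKO NPCs, against 0.355 ± 0.183 CPM (SD, n = 6) in WT serum cells. Pou5f1, the core pluripotency factor, was still at 188 to 336 CPM in WT NPCs and 301 to 556 in pKO NPCs. Per length, Pou5f1 stood at 436 ± 97.4 TPM, a measure per transcript length (SD, n = 6), in WT NPCs and Sox1 at 56.7 ± 38.4. Both sets of markers were thus present in every library, and bulk RNA cannot tell a mixture of cells from cells that hold both. For the same reason, more cells of a type and more RNA per cell cannot be told apart in any result here.

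The readout of the deleted locus was Platr11, a non-coding RNA between Cmc1 and Eomes in the reference annotation. No source used here states that Platr11 and Meteor are the same transcript. Platr11 was at 4.43, 7.12 and 6.12 CPM in WT1 and at 5.35, 5.16 and 7.29 in WT2. It was at 0, 0 and 0.0853 CPM in pKO1 and at 0.0714, 0 and 0.371 in pKO2. All 6 pKO libraries lay below all 6 WT libraries. The pKO libraries together held 6 counts against 474 in WT, which is 1.43% of the WT level (95% exact interval 0.521 to 3.13, counting error only). The log2 fold change was -6.30 ± 0.59 (SE; edgeR adjusted p = 6.99e-05). The pInv libraries held 0 counts, at least 75.5-fold below WT with a floor of 3 counts over the group.

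Eomes went the opposite way. It was at 4.43, 4.77 and 2.49 CPM in WT1, at 1.31, 1.21 and 2.30 in WT2, at 24.1, 25.1 and 13.6 in pKO1 and at 9.49, 25.8 and 8.35 in pKO2. Every pKO library was above every WT library. The group means were 2.75 ± 1.52 CPM in WT and 17.8 ± 8.16 in pKO (SD, n = 6 each), a log2 fold change of 2.81 ± 0.32 (SE; edgeR adjusted p = 0.000208). In the pInv libraries, with as little Platr11, Eomes stayed at 2.94, 2.54 and 1.60 CPM, within the WT range. The other neighbours were not called by edgeR. DESeq2 called 2 falls among the locus genes, Platr11 included, and edgeR also called 2 without WT1 replicate 1 or WT2 replicate 1. Cmc1, a mitochondrial respiratory chain assembly factor, was at 30.8 ± 6.77 CPM in WT and 22.7 ± 3.97 in pKO (log2 fold change -0.44 ± 0.14, edgeR adjusted p = 0.0723). Golga4, a Golgi tether, Azi2, an adaptor of TBK1 signalling, and Itga9, an integrin subunit, had log2 fold changes of -0.04, -0.16 and -0.27.

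The upstream bases of Eomes and of Sp5, a direct target of Wnt signalling, are shown because both genes rose together in pKO NPCs. They are the 250 bases before the annotated start in RefSeq (GRCm38.p6, plus strand for both), at chr9:118477939-118478188 for Eomes and chr2:70474673-70474922 for Sp5.
Eomes: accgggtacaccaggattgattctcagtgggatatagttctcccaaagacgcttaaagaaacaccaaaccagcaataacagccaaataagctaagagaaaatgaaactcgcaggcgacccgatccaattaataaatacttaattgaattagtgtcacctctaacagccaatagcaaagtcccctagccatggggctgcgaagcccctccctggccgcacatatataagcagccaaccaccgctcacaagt
Sp5: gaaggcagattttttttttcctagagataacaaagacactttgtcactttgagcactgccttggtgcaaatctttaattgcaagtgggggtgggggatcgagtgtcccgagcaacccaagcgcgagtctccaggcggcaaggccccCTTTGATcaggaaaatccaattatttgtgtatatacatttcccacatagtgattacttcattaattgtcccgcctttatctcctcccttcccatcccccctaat
Capitals mark a TCF/LEF word (ATCAAAG, read on the other strand), whose first base on the plus strand lies 104 bases upstream of the start. Of the 15 called streak and Nodal genes, 7 had a window in the table, and Sp5 alone among these held that word, which 3.21% of all 32851 windows of this length hold. The T-box word AGGTGTGA (in 1.12% of windows), the FOXH1 word AATCCACA (0.718%) and the SMAD word GTCTAGAC (0.167%), searched on both strands with no overlap between words in these windows, were in none of the 7. A match is a description of letters only, and the Meteor promoter itself is not shown.

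Across the transcriptome, 14511 genes were tested and 1168 were called, 8.05% of the genes tested. Of these, 500 rose (3.45%) and 668 fell (4.6%), with 163 rises and 187 falls past 2-fold. The median log2 fold change of all genes was 0.009. All 6 pKO libraries lay above all 6 WT libraries for 182 genes (1.25%) and below them for 299 (2.06%). The falls were unevenly placed: 322 of the 668 were on chromosome 11, described further below. Outside chromosome 11 there were 495 rises (3.71%) and 346 falls (2.59%), and when the test was run again without that chromosome's genes, a choice made after seeing the data, it called 306 rises and 325 falls. With the libraries of each line summed, so that a line is the replicate, edgeR called 0 of 15290 genes, and 1818 had an unadjusted p under 0.05.

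The Nodal pathway list held 19 tested genes, of which 6 rose and 0 fell, with a median of 0.08 over the list. The genes that rose included the ligand, its co-receptor and feedback inhibitors. Nodal was at 16.2, 8.88 and 8.0 CPM in WT1, 7.98, 2.63 and 3.00 in WT2, 22.5, 19.3 and 32.4 in pKO1, and 33.8, 67.6 and 55.7 in pKO2. Every pKO library was above every WT library, and the log2 fold change was 2.35 ± 0.28 (edgeR adjusted p = 0.000287). Tdgf1, the co-receptor Cripto, rose by 1.29 ± 0.16, but its libraries overlapped: WT1 stood at 55.5 to 90.2 CPM, as high as pKO1 at 54.5 to 76.9, while WT2 was at 20.8 to 26.9 and pKO2 at 147 to 187. The secreted inhibitors Lefty1 (1.88 ± 0.33) and Lefty2 (1.42 ± 0.30) and the inhibitory SMAD Smad7 (1.20 ± 0.25) rose with overlapping libraries. The receptors and signal carriers were not called: Acvr1b, Acvr2a, Acvr2b, Smad2, Smad3 and Smad4 had log2 fold changes of -0.09 to 0.01, and Foxh1, the SMAD2 partner, had 0.59 ± 0.25 (adjusted p = 0.152).

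Primitive streak and mesendoderm genes rose for 9 of 16 tested, with 0 falls and a median of 1.99, and Eomes is among them. Another 4 members were not tested. The low-count filter keeps a gene with enough counts in any 3 libraries, so members near 0 in WT, such as Evx1, entered through other lines. Such genes can rise but hardly fall, which limits this median and the 0 falls. Wnt3, the ligand that starts the streak, was at 3.25, 1.69 and 0.755 CPM in WT1, 1.23, 1.26 and 0.699 in WT2, 11.5, 7.37 and 7.34 in pKO1, and 5.85, 9.57 and 5.75 in pKO2. It did not overlap between genotypes (log2 fold change 2.45 ± 0.33, edgeR adjusted p = 0.000748), although it lies on chromosome 11. Fgf8, a streak and midbrain growth factor, was at 4.43, 3.01 and 1.06 CPM in WT1, 0.351, 0 and 0.599 in WT2, 25.5, 7.46 and 16.0 in pKO1, and 9.63, 11.3 and 8.44 in pKO2 (3.82 ± 0.57). Its WT1 libraries were the highest of WT but still below each pKO library. T, the streak and notochord T-box factor, varied most among pKO libraries, at 43.2, 51.2 and 18.9 CPM in pKO1 and 15.0, 86.0 and 5.94 in pKO2. In WT it was at 2.22, 19.7 and 2.04 CPM in WT1 and 1.05, 2.06 and 0.799 in WT2, so that replicate 2 of WT1 overlapped pKO (3.47 ± 0.66, edgeR adjusted p = 0.00603). Sp5 went from 0.252 ± 0.309 CPM to 4.71 ± 3.22 without overlap (4.45 ± 0.80). Evx1, a posterior streak homeobox gene, had 1 count in all WT libraries against 109 in pKO, a ratio of 123 (95% exact interval 21.6 to 4900, counting error only). The other 3 called members had log2 fold changes of 1.70 to 2.31.

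**Figure D1:**
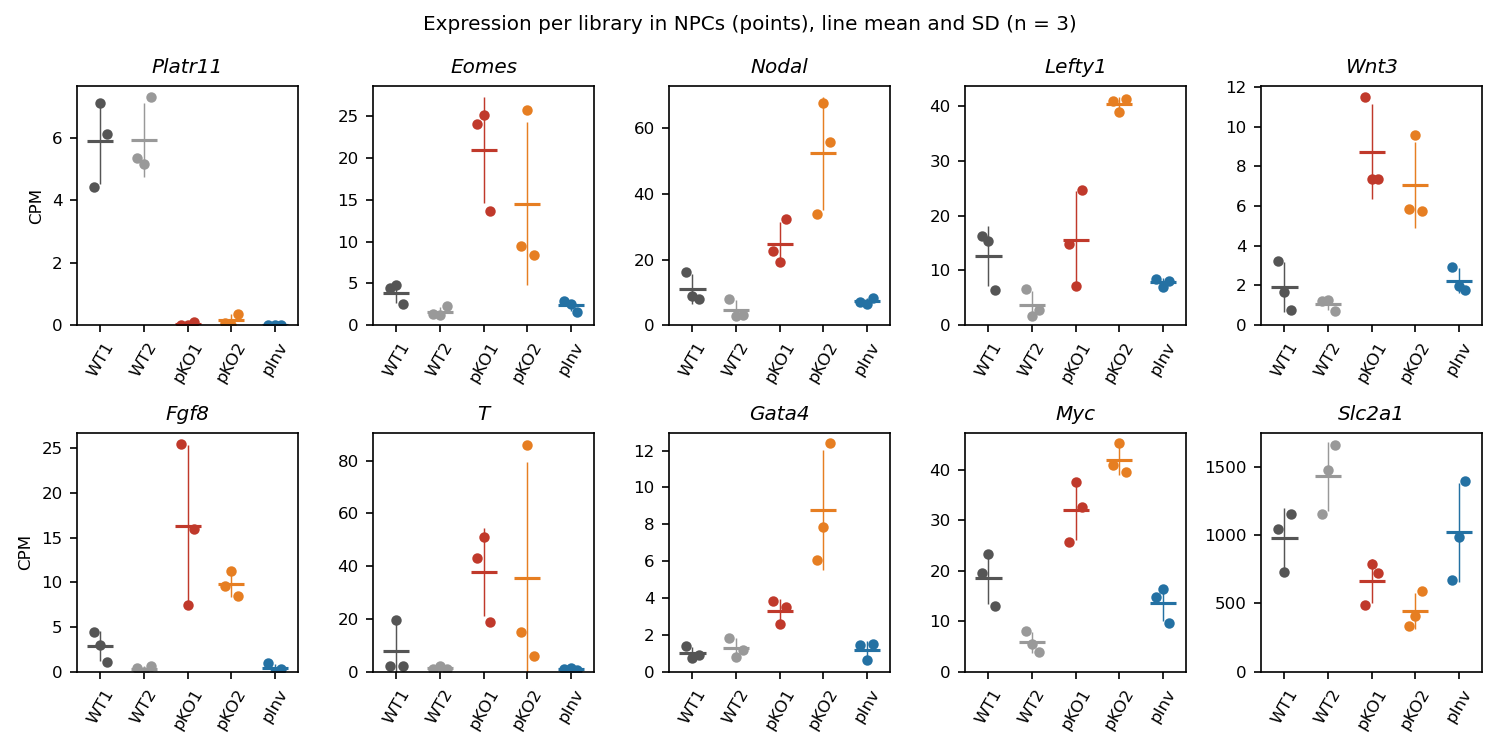
CPM of 10 genes (vertical axes, linear from 0) in each NPC library of WT1, WT2, pKO1, pKO2 and pInv (horizontal axes); points are libraries, horizontal bars line means and vertical bars SD (n = 3). Platr11 was near 0 in pKO and in pInv, whereas Eomes, Nodal and Wnt3 were higher in all pKO libraries than in all WT libraries, with pInv at 1.60 to 2.94 CPM for Eomes.

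Definitive endoderm genes rose for 5 of 11 tested with 0 falls and a median of 1.30. Gata4, an endoderm and heart GATA factor, was at 1.14 ± 0.423 CPM in WT and 6.04 ± 3.68 in pKO with no overlap (2.25 ± 0.33, edgeR adjusted p = 0.00135). Foxa2, the endoderm and floor plate forkhead factor, was at 0.496 ± 0.575 and 3.11 ± 2.31 CPM (3.69 ± 0.69). Its lowest pKO library, at 1.02 CPM, lay below the highest WT library at 1.38. Sox17, an endoderm HMG-box factor, went from at most 0.208 CPM in WT to 0.256 to 3.89 in pKO (3.81 ± 0.93). Gata6 (2.26 ± 0.60) and Trh, the thyrotropin-releasing hormone gene (1.30 ± 0.34), also rose. In the 12 fits that each left out 1 library, Gata6 lost its call in 6 and Trh in 8 (adjusted p up to 0.0973), and Sox17 without WT1 replicate 3, WT2 replicate 2, WT2 replicate 3 or pKO2 replicate 2 (adjusted p 0.058 to 0.0646). Cdx2, Hoxb1, Hoxa5 and Nkx1-2 were the 4 risers among 12 tested caudal and Hox genes (0 falls, median 1.19). Another 11 members were not tested, and the low-count filter limits the caudal and endoderm medians and their 0 falls as it does for the streak list. Nkx1-2, a homeobox gene of the caudal epiblast, was at 2.82 ± 3.78 CPM in WT and 16.9 ± 11.8 in pKO (3.03 ± 0.63). Cdx2, a caudal and trophoblast homeobox factor, had the largest rise among called genes averaging at least 1 CPM with separate line means, from 0.213 ± 0.332 to 2.74 ± 2.24 CPM (5.38 ± 1.09). Hoxb1 (2.47 ± 0.57) is on chromosome 11 and was not called without pKO1 replicate 1 (adjusted p = 0.0596), nor was Hoxa5 without that library or WT1 replicate 3 (up to 0.0657). Mesoderm and vascular precursor genes rose for 3 of 16 (median 0.46), namely Aplnr, Msx1 and Msx2, and all 3 had overlapping libraries. Of the 12 fits that each left out 1 library, those without WT1 replicate 1 or pKO1 replicate 3 again gave 3 mesoderm genes, that without WT2 replicate 1 gave 2, that without WT1 replicate 3 gave 0 and the others gave 1.

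FGF ligands and targets of ERK signalling rose for 8 of 23 tested, with 0 falls and a median of 0.52. Over all genes tested 3.45% rose, which is the share to set beside the list counts that follow. Myc was at 19.5, 23.3 and 13 CPM in WT1, 8.06, 5.38 and 3.89 in WT2, 25.7, 37.6 and 32.6 in pKO1, and 40.9, 45.3 and 39.6 in pKO2, with no overlap (1.82 ± 0.20, edgeR adjusted p = 0.000142). Dusp6, a phosphatase that turns ERK off and is itself an ERK target, was at 65.8 ± 9.87 CPM in WT and 93.7 ± 7.20 in pKO, a small shift without overlap (0.52 ± 0.10). Fgf15, a growth factor of the early brain and epiblast, went from 13.6 ± 9.76 to 75.0 ± 31.5 CPM (2.50 ± 0.47). Etv1 (0.88 ± 0.16) and Spry4 (1.08 ± 0.24) rose with overlap. BMP and Id genes rose for 4 of 14 (median 0.60), among them Id3, a BMP-induced inhibitor of bHLH factors (1.27 ± 0.24). The BMP and Id count was 2 without WT1 replicate 2, WT1 replicate 3, pKO1 replicate 1 or pKO2 replicate 3. Among Wnt targets and regulators, 3 of 15 rose (Sp5, Fzd10 and Dkk1) and 1 fell, Tcf7, which is on chromosome 11 (-0.58 ± 0.12). The Wnt rises numbered 2 without WT1 replicate 3, WT2 replicate 2, pKO1 replicate 1 or pKO2 replicate 2, and 5 without WT1 replicate 1 or WT1 replicate 2. None of 16 Notch genes was called by edgeR (median 0.01); 3 had an unadjusted p under 0.05, and DESeq2 called 2, both as rises. edgeR called 3 Notch rises without WT1 replicate 1 and 1 without WT2 replicate 1. Of the retinoic acid list, Aldh1a2 (1.51 ± 0.44) and Stra6 (1.07 ± 0.32) rose among 13, and neither was called without chromosome 11 genes. They lost the call in 10 and 9 of the fits that left out 1 library (adjusted p up to 0.137), and Dkk1 in 8 (up to 0.0828).

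In the neural lists 3 of 32 progenitor genes, 4 of 26 proneural and neuronal genes and 1 of 13 neural crest genes were called, against 8.05% of all genes. Of the 32 neural progenitor genes 3 rose and 0 fell (median 0.05), among them Zic1, a roof plate zinc finger factor (2.77 ± 0.58), and En2, a midbrain homeobox factor (1.81 ± 0.54). Sox1 had a log2 fold change of -0.31 ± 0.36 (edgeR adjusted p = 0.651), Pax6 -0.19 ± 0.26 and Nes 0.44 ± 0.24, and the libraries of all 3 genes overlapped widely. Of 26 proneural and neuronal genes, Insm1 (-0.89 ± 0.22), Ebf1 (-0.95 ± 0.24, on chromosome 11) and Elavl3 (-0.47 ± 0.14) fell, Nefl rose (0.63 ± 0.18), and the list's median was 0.00. Tfap2b, a neural crest factor, was the 1 call among 13 neural crest genes (3.66 ± 0.96). Core pluripotency genes rose for 4 of 13 (median 0.27), with Pou5f1 from 265 ± 64.9 to 407 ± 92.4 CPM (0.63 ± 0.16), and with Sall4 (0.35 ± 0.10) and L1td1 (0.78 ± 0.22). The core count fell to 1 or 2 in 9 of the 12 fits that left out 1 library, and to 2 without chromosome 11 genes. Pou5f1 lost its call in 7 of those fits (adjusted p 0.0577 to 0.0862), Elavl3 in 11, En2 in 10, Nefl in 9, Ebf1 in 8, Tfap2b in 6 and Insm1 in 4, at adjusted p of at most 0.17. Of 15 naive pluripotency genes 1 was called, Dppa3, which fell (-1.46 ± 0.29). Grhl2 and Krt8 rose among 16 surface ectoderm genes, Krt8 losing its call in 6 such fits. Endoderm genes shared with the definitive list, and Cubn, a kidney and visceral endoderm receptor (1.87 ± 0.36), made up the 4 risers among 15 tested extraembryonic endoderm genes. Of the 6 untested members, Afp and Fabp1 were at 0 in all 12 libraries. Cdx2 was the single call among 11 trophoblast genes.

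**Figure D2:**
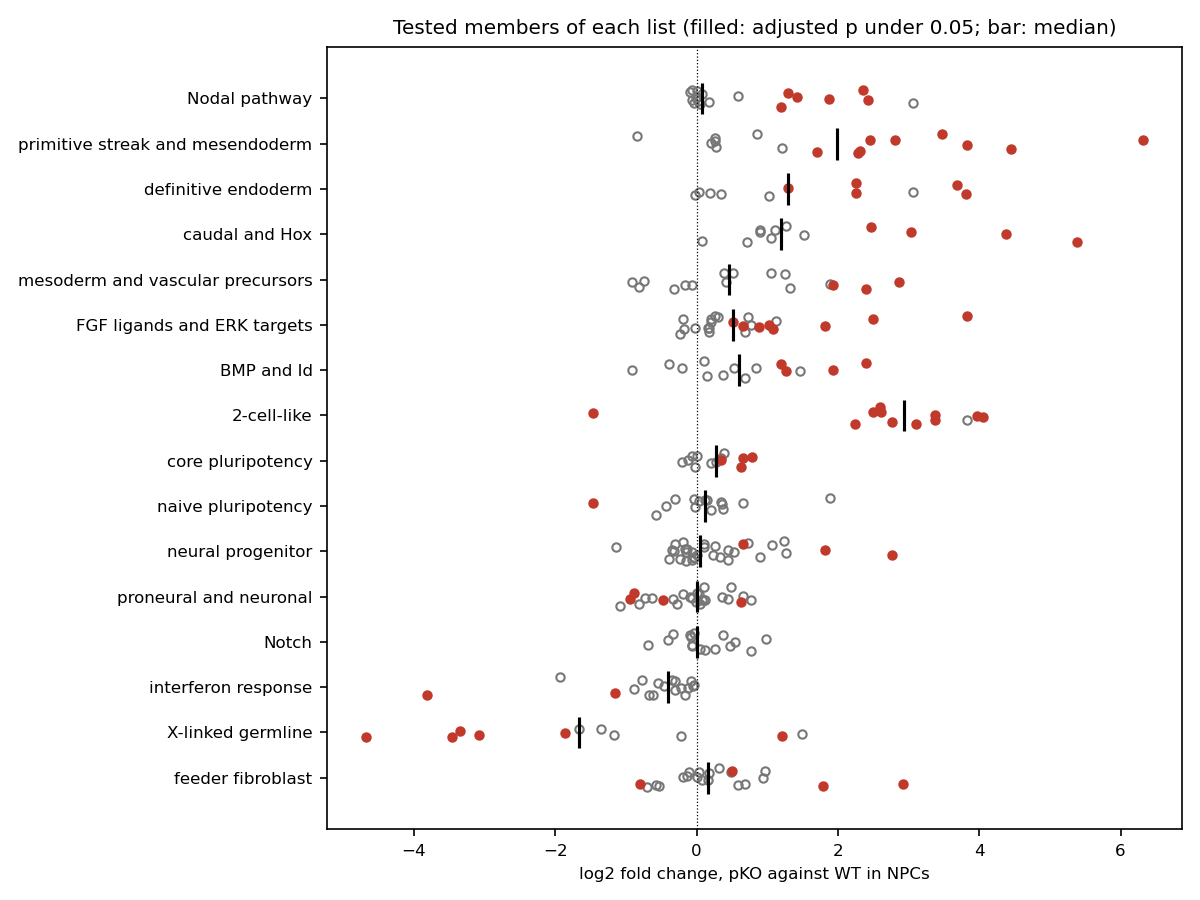
Log2 fold change of pKO against WT in NPCs (horizontal axis) for each tested member of 16 gene lists (vertical axis); filled points passed the adjusted p of 0.05 and bars mark list medians. The streak list has its median at 1.99 and the 2-cell-like list at 2.94, whereas the neural progenitor, neuronal and Notch medians lie between 0.00 and 0.05. Members near 0 in WT, such as Evx1 in the streak list, were tested through other lines, which limits the medians. The same holds for members near 0 in pKO, as in the X-linked germline list.

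Genes of the 2-cell-like state, a rare condition of stem cell cultures that uses transcripts of the 2-cell embryo, rose for 10 of 12 tested and 1 fell (median 2.94). Another 4 members were not tested. The low-count filter limits this median and the direction of the calls as it does for the streak list. Zscan4f, a SCAN domain protein of that state, was at 4.78, 7.48 and 6.19 CPM in WT1, 1.93, 1.84 and 2.20 in WT2, 8.76, 4.71 and 17 in pKO1, and 75.1, 21.0 and 36.7 in pKO2. The pKO1 libraries overlapped WT1, and pKO2 stood above all others (2.60 ± 0.35 for both lines together, edgeR adjusted p = 0.000646). Over the list the summed level averaged 38.0 CPM in WT1, 16.2 in WT2, 30.4 in pKO1 and 122 in pKO2. With pKO1 alone against both WT lines 3 of the 12 rose and with pKO2 alone 11, and with WT1 as the only control 4. Zscan4b (2.61 ± 0.41), Zscan4c (2.49 ± 0.40), Zscan4d (3.37 ± 0.58) and the deubiquitinase gene Usp17le (3.37 ± 0.89) rose too. Members of these families are near copies of each other, so reads may be shared between them and single-gene values are uncertain. Gm2022 and a row for 1 transcript of Gm14296, without a chromosome here, were also among the 10 largest rises. The row that merges Gm14296 with 2210418O10Rik on chromosome 2 had more counts, at 11.9 CPM on average, and was not called (-0.38, edgeR adjusted p = 0.641). Gm2022 averaged 0.377 CPM in pKO1 and 3.74 in pKO2, and the Gm14296 transcript averaged 2.10 and 5.0. Leaving out 1 library ended the call of this transcript in 10 fits and of Usp17le in 9 (adjusted p up to 0.0928), and that of Gm2022 without pKO1 replicate 2 (0.0806).

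The largest falls after Platr11 included genes known from germ cells. Among them, 5 of 11 tested members of a list of X-linked and related germline genes fell and 1 rose, Slc25a31, which is on chromosome 3 in the mouse (list median -1.66). Another 12 members were not tested. Members near 0 in pKO passed the low-count filter through other lines and can fall but hardly rise, which limits this median and the direction of the calls. Over all genes tested 4.6% fell and 3.45% rose. Xlr3a, of an X-linked lymphocyte-regulated family, was at 11.7, 20.4 and 18.3 CPM in WT1, 5.0, 8.85 and 7.09 in WT2, 0.243, 0.267 and 0 in pKO1, and 1.07, 0.243 and 1.67 in pKO2 (-4.68 ± 0.43). Usp26, a testis deubiquitinase, went from 10.1 to 67.3 CPM in WT to 1.22 to 5.03 in pKO (-3.35 ± 0.27), and Nxf3, an mRNA export factor, from 19 to 39.4 to 1.28 to 7.15 (-3.08 ± 0.23, edgeR adjusted p = 3.26e-06). None of these 3 overlapped. Xlr3b, a near copy of Xlr3a (-3.46 ± 0.46), and Tktl1 (-1.87 ± 0.49) made up the rest. Tktl1 lost its call in 7 fits that left out 1 library (adjusted p up to 0.0748) and Slc25a31 in 10 (up to 0.106). The summed level of the list was 46.3 to 159 CPM in WT and 8.44 to 30.8 in pKO. The pInv line stood between for some of them, with Usp26 at 5.6 CPM and Nxf3 at 16.3 on average. Over the list, pInv against WT had a median of -1.40 with 1 called fall. For pKO against pInv the list's median was -0.32 with 2 called falls. Of 18 interferon response genes 2 fell, Ddx60 (-3.81 ± 0.74) and Ifit2 (-1.16 ± 0.26), and 0 had a positive log2 fold change (median -0.41). Another 7 members were not tested, and the filter limits this list in the same way. Ddx60 averaged 0.396 CPM in pInv, between pKO1 at 0.174 and pKO2 at 0.533. Over the interferon list, pInv against WT had a median of -0.36 with 0 calls. The remaining large falls were 4933427D06Rik, Rbm44, Lrrc31 and Spink2, at -3.33 to -2.95, the last not called without WT1 replicate 3 (adjusted p = 0.0543). Among 25 imprinted genes 2 rose (Cdkn1c and Peg3) and 4 fell, H19 the most, from 5.70 to 16.0 CPM in WT to 0.426 to 3.29 in pKO (-2.09 ± 0.45), with pInv at 2.71. Peg3 was not called without WT2 replicate 3, pKO1 replicate 1 or pKO2 replicate 2 (adjusted p 0.051 to 0.0673). The imprinted falls numbered 2 without WT1 replicate 3, WT2 replicate 3 or pKO2 replicate 2; Slc38a4 lost its call in these 3 fits (adjusted p up to 0.0551) and the row Snrpn|Snurf in 9 (up to 0.0951). Tdrkh, a piRNA pathway Tudor protein, fell (-1.01 ± 0.15) and Rpl10l rose (1.61 ± 0.26) among 16 germline genes, besides Dppa3.

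Of genes that report the state of the culture, Slc2a1, the main glucose transporter, fell by 1.13 ± 0.19 on the log2 scale, from 730 to 1660 CPM in WT to 332 to 790 in pKO. Among the 23 genes of its hypoxia and glycolysis list, Pfkfb3 (0.57 ± 0.13) and Ndrg1 (0.71 ± 0.21) rose (median 0.12). Over all genes tested 8.05% were called, and 1 to 3 calls in a list are not read here as a result about that list. The ATF4 and unfolded protein list had 1 rise and 1 fall among 19, Hspa5 and Xbp1, the latter on chromosome 11. Its median was 0.38 with 17 of the 19 above 0, and DESeq2 called 3 rises and 1 fall. In pInv against WT the list's median was 0.32 with 0 calls. None of 20 cholesterol synthesis genes was called by edgeR; 6 had an unadjusted p under 0.05, DESeq2 called 2, as rises, and edgeR called 4 rises without WT1 replicate 1. Of 20 cell cycle and p53 genes 3 rose: Cdkn2a (1.85 ± 0.919 to 7.37 ± 2.56 CPM, 1.98 ± 0.34), Cdkn1a (0.63 ± 0.16) and Cdkn1c (1.22 ± 0.25). Dnmt3l was the 1 call among 11 DNA methylation genes (0.92 ± 0.25), and it was high in pKO2 alone, at 103 CPM on average against 10.5 in pKO1 and 27.6 in WT1. Fibroblast genes of a feeder layer were called for 4 of 21 (median 0.16). Lox (2.92 ± 0.59), Bgn (1.79 ± 0.49) and Col5a1 (0.50 ± 0.15) rose and Thy1 fell (-0.80 ± 0.19). With 1 library left out, Hspa5 lost its call in 11 fits, Col5a1 in 10, Ndrg1 in 9, Dnmt3l in 8, Bgn in 7, Xbp1 in 5 and Cdkn1a in 4 (adjusted p up to 0.126), and Thy1 without WT1 replicate 3 (0.055). Of the cell cycle and p53 genes 7 rose without WT1 replicate 1, and the fibroblast rises numbered 1 without WT1 replicate 2, WT1 replicate 3, WT2 replicate 1, WT2 replicate 3, pKO1 replicate 1, pKO1 replicate 2 or pKO2 replicate 2. The summed fibroblast level was 603 to 1700 CPM in WT and 913 to 1610 in pKO, no member was at 0 in all libraries, and its part in the mesoderm and streak results was not tested. Of macrophage and endothelial genes 4 of 14 were tested and edgeR called 0, while 1 had an unadjusted p under 0.05 and DESeq2 called 1 as a fall. Emcn was at 0 in all 12 libraries.

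Levels also differed between lines of 1 genotype. The summed streak list averaged 144 CPM in WT1 and 83.0 in WT2, against 289 in pKO1 and 265 in pKO2. Between the WT lines 0 of its 16 tested genes were called, but its median WT2 minus WT1 value was -1.165. That median was -1.947 for the caudal list, -1.249 for the 2-cell-like list, -1.065 for the endoderm list and -0.099 for the Nodal list, each with 0 rises called. Between the WT lines 15 genes were called (0.103% of those tested), among them Tdgf1 (WT2 minus WT1 -1.66, edgeR adjusted p = 0.00691) and Myc (-1.68, adjusted p = 0.023). With WT1 as the only control, 2 of 16 streak genes and 2 of 19 Nodal genes rose, on a background of 0.593% of all genes. In that setting 1 endoderm gene and 1 FGF or ERK gene rose. The caudal, mesoderm, BMP, Wnt and core pluripotency lists had 0 rises. With WT2 as the only control the streak and Nodal counts were 10 and 6, on a background of 2.28%. The rises were then 3 for endoderm, 7 for FGF and ERK, 5 for caudal, 3 for mesoderm, 5 for BMP, 3 for Wnt and 4 for core pluripotency. With pKO1 alone against both WT lines, 8 streak and 2 Nodal genes rose (background 2.5%), and with pKO2 alone 7 and 6 (background 2.99%). Leaving out each of the 12 libraries in turn gave 6 to 9 streak genes, 6 to 8 Nodal genes, 2 to 6 endoderm genes, 2 to 5 caudal and Hox genes, 6 to 8 FGF and ERK genes and 5 to 11 2-cell-like genes. The endoderm count fell to 2 without WT1 replicate 3, WT2 replicate 2, WT2 replicate 3 or pKO2 replicate 2 and to 3 without pKO1 replicate 1, the caudal count to 2 without pKO1 replicate 1, and the 2-cell-like count to 6 without WT1 replicate 3 and 5 without WT2 replicate 2. Over all genes, 1921 were called when replicate 1 of WT1 was dropped; dropping another library gave 525 to 1126. Eomes was called in each of the 4 pairings of a pKO line with a WT line, at 2.42, 3.73, 1.90 and 3.20 for pKO1 against WT1, pKO1 against WT2, pKO2 against WT1 and pKO2 against WT2 (largest edgeR adjusted p = 0.0457). Wnt3 missed the call in the third pairing (adjusted p = 0.0597), and Nodal in the first (0.094).

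Only 24 genes were called in the same direction in all 4 pairings, 7 up and 17 down. Besides Eomes, and chosen for naming after their values were seen, the risers included Epha2, an ephrin receptor kinase (2.56), and Twist1, a mesenchymal bHLH factor (1.21). Of the 17 that fell, 10 were on chromosome 11. Platr11, Xlr3a, Usp26 and Nxf3 fell in all 4.

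**Figure D3:**
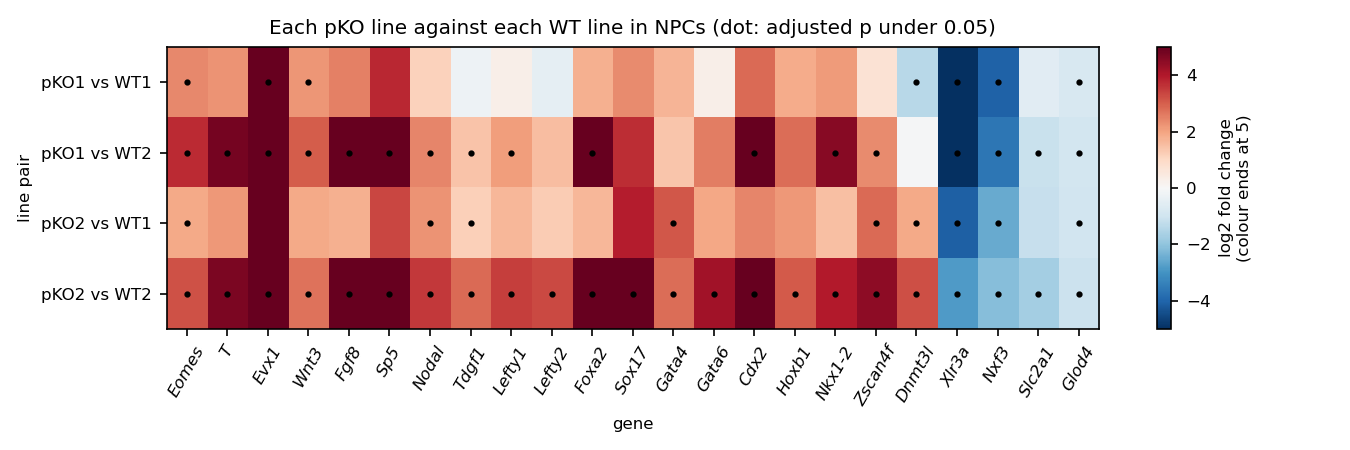
Log2 fold change (colour, ending at 5 in either direction) of 23 genes (horizontal axis) for each pKO line against each WT line in NPCs (vertical axis); dots mark an adjusted p under 0.05. The 6 streak genes, Eomes to Sp5, are positive in all 4 rows, Eomes with a dot in each, whereas Tdgf1 and Lefty2 are negative for pKO1 against WT1.

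The 2 pKO lines differed at 425 genes (2.93%), with 315 higher in pKO2 (2.17%) and 110 higher in pKO1. Of 15 naive pluripotency genes 11 were higher in pKO2 and 0 lower, with a median of 2.41. In the comparison with WT this list had 1 call and a median of 0.12. The summed naive level averaged 308 CPM in pKO1 and 687 in pKO2, against 571 in WT1 and 320 in WT2. Germline genes were higher in pKO2 for 7 of 16 and 2-cell-like genes for 3 of 12. Of 16 streak genes 1 was higher in pKO2 and 0 were lower.

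Set against pInv rather than WT, pKO differed at 127 genes (0.875%), 65 of them higher (0.448%) and 62 lower. This comparison shares its pKO libraries with the one above. Eomes was higher by 2.87 (edgeR adjusted p = 0.00586), Nodal by 2.30 (0.00856), Tdgf1 by 2.59 (4.9e-05), Fgf8 by 4.86 (0.0114) and T by 5.20 (0.0227). By list, 4 of 19 Nodal genes, 3 of 16 streak genes, 2 of 11 endoderm genes and 5 of 12 2-cell-like genes were higher. Between pInv and WT edgeR called 2 genes (0.0138%), both as falls, and 1015 had an unadjusted p under 0.05. Of the locus genes, Platr11 was the 1 called there, and 1 member of the X-linked germline list was called too.

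For Eomes and several streak genes the pKO effect in NPCs had the opposite sign to that in serum. In a fit over 45 libraries, Eomes in serum was 1.10 lower on the log2 scale in pKO, at 22.5 ± 5.23 CPM against 48.5 ± 15.6 in WT (SD, n = 6). In 2i it was 0.97 lower. The effect in NPCs minus that in serum was 3.91 for Eomes (edgeR adjusted p = 2.67e-09) and that in NPCs minus 2i was 3.79. Both differences reuse the NPC libraries of the main comparison. Of 20 streak genes 8 were lower and 1 higher in pKO serum cells (background 4.24% lower), and for 13 of 20 the effect was higher in NPCs than in serum (background 1.97%) with 0 the other way. For T the difference was 4.85, for Fgf8 5.51 and for Wnt3 3.69. The Nodal list had 6 of 20 such genes, the endoderm list 7 of 14 and the caudal list 5 of 23. Against 2i the counts were 5 streak, 6 Nodal, 4 endoderm and 4 caudal genes (background 1.86%). Of 13 2-cell-like genes 9 were higher in pKO serum cells (background 3.37%), and 0 of 13 had an effect that differed between NPCs and serum, while for 11 it was higher and for 1 lower in NPCs than in 2i. In all, 630 of 15679 genes had an effect in NPCs that differed from serum (4.02%), and 544 one that differed from 2i (3.47%).

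**Figure D4:**
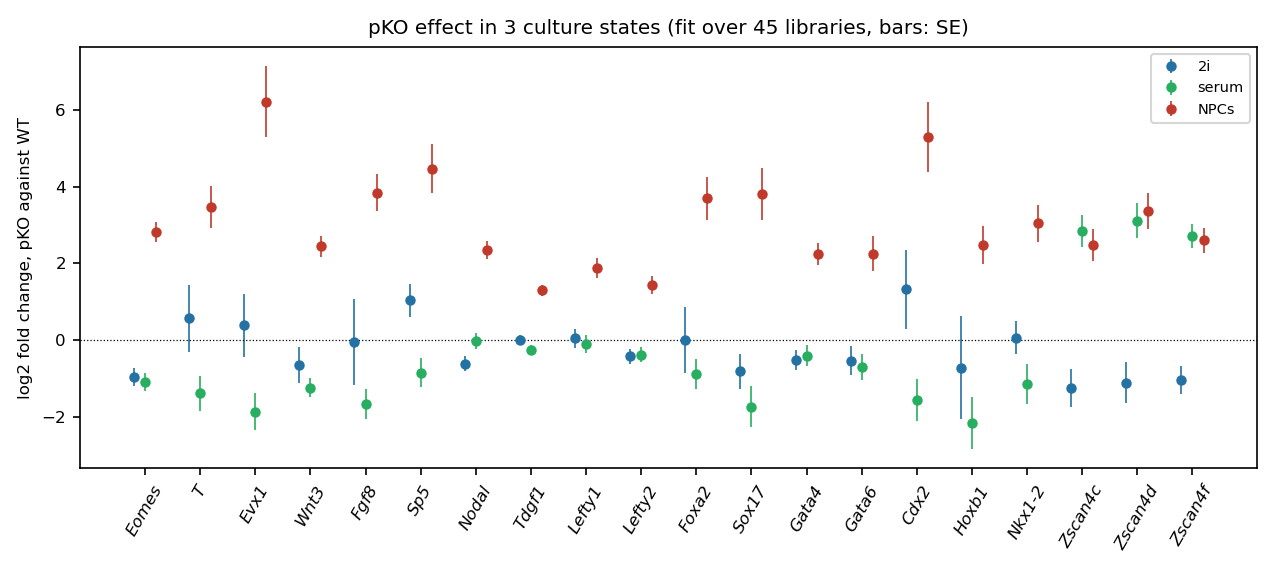
Log2 fold change of pKO against WT (vertical axis, bars SE) for 20 genes (horizontal axis) in 2i, serum and NPCs, from a fit over 45 libraries. Eomes is 1.10 below WT in serum and 0.97 below in 2i but above WT in NPCs, and the Zscan4 genes are above WT in serum and NPCs.

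Chromosome 11 stood apart from all other chromosomes. Of its 1175 tested genes 327 were called (27.8%), 322 as falls (27.4%) and 5 as rises (0.426%), while the other chromosomes had 4.44% to 9.18% of their genes called. Its median log2 fold change was -0.382, and 84.3% of its genes were below 0. Along the chromosome, 17 of 17 consecutive blocks of up to 50 expressed genes had a median below 0, from -0.534 to -0.23. By library, its median log2 CPM against the WT mean was -0.39 to -0.36 in pKO1, -0.38 to -0.29 in pKO2, -0.11 to 0.07 in WT1, 0.01 to 0.06 in WT2 and -0.08 to 0.11 in pInv. In the other states the chromosome's median for both pKO lines together against WT was -0.304 in serum and -0.205 in 2i. The 3 calls with the smallest p were Glod4, a glyoxalase domain protein, Inca1 and Pipox, a peroxisomal sarcosine oxidase. Glod4 was at 96.7 ± 7.09 CPM in WT and 50.4 ± 3.22 in pKO (SD, n = 6; -0.94 ± 0.09, edgeR adjusted p = 4.77e-05), Inca1 fell by 1.98 ± 0.24 and Pipox by 1.12 ± 0.15. DNA copy number was not measured here, and its part in the falls was not tested. Eomes and Nodal are on chromosomes 9 and 10. Eomes kept its call with chromosome 11 genes left out, and 6 Nodal, 8 streak and 5 endoderm genes rose in that fit. Named genes that were not called in it numbered 14, with adjusted p of 0.0531 to 0.0808: the Gm14296 transcript, Aplnr, L1td1, Sall4, Dnmt3l, En2, Nefl, Elavl3, Aldh1a2, Stra6, Slc25a31, Ndrg1, Hspa5 and Col5a1.

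Chromosome 8 separated lines rather than genotypes. Its median was -0.22 to -0.13 in WT1 and -0.28 to -0.02 in pKO2, but 0.18 to 0.21 in WT2, 0.13 to 0.19 in pKO1 and 0.19 to 0.34 in pInv. In the comparison of genotypes its median log2 fold change was -0.012 with 59 of 750 genes called (7.87%). Sox1 is on chromosome 8, and its WT2 minus WT1 value was 1.41 and its pKO2 minus pKO1 value -0.95. Chromosome 6 had 63 of 686 genes called (9.18%), 49 of them as falls. Its median was 0.06 to 0.12 in WT1 and -0.14 to -0.05 in WT2. It was -0.04 to 0.01 in pKO1, -0.2 to -0.1 in pKO2 and -0.13 to -0.07 in pInv.

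**Figure D5:**
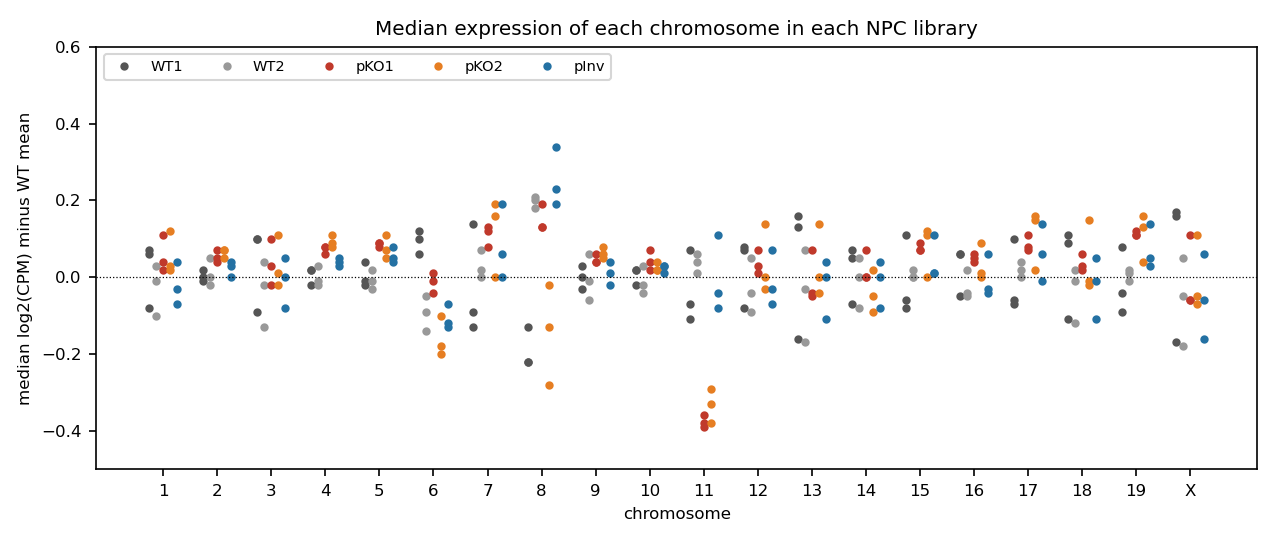
Median over expressed genes of log2 CPM minus the WT mean (vertical axis) for each chromosome (horizontal axis) in each of the 15 NPC libraries, coloured by line. On chromosome 11 all 6 pKO libraries sit at -0.39 to -0.29, below the WT and pInv libraries, and chromosome 8 separates WT1 and pKO2 from the other lines.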

How the data were processed

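The values analysed were RSEM expected counts per gene, deposited by the authors for each library, and, for levels set side by side between genes, the deposited TPM values. Per the submitters' processing notes, RSEM was run against mm9, and its version, the aligner and the strand setting are not given in the sources used here. The kit was Lexogen SENSE mRNA-Seq, per the labels. Of 24990 rows, 23822 were named by gene id and 1155 by transcript from RefSeq and gene tables, 375 merged several genes and 12 had no name. Fractional estimates made up 5.138% to 7.007% of a library's values and were rounded. The largest unnamed row held 1.827% to 4.065% of a library. Chromosomes and gene order come from the GRCm38 annotation, so mm9 coordinates are not printed. Depth was 10035831 to 18553323 counts in the 12 libraries, and no 2 libraries of a line were copies (chi-square per gene at least 10.75 over 15 pairs, pInv included). The highest values were those of WT1 replicate 1, at 67.73 and 77.75 against WT1 replicates 2 and 3, which were at 15.32 from each other.

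The NPC fit used edgeR 4.0.16 in R 4.3.3 on 15 libraries (4 lines plus pInv), with 1 mean per line, TMM scaling, filterByExpr and quasi-likelihood F tests. The effect was the mean of the pKO line means minus the mean of the WT line means, and SE is the absolute log2 fold change over the square root of F. Interactions with state came from 1 fit over 45 libraries. Python 3.11.15, scipy 1.17.1 and matplotlib 3.10.9 did the rest. On simulated data for the NPC comparison (14263 genes), 19 of 67 genes changed 1.5-fold, 50 of 67 changed 2-fold and 61 of 66 changed 4-fold were recovered, with 3 false calls. The simulated lines of a genotype shared 1 mean per gene, so the false calls do not measure errors from differences between lines. Chromosome medians used genes above a mean log2 CPM of 3.

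Genes were named by rule: the locus; the 10 largest rises and falls averaging 1 CPM or more whose line means did not overlap between genotypes; up to 6 called members per list by p; and the 3 smallest p on a chromosome with an outlying share of calls. There were 32 lists. The members and lists were chosen with earlier results of these data known. Alternatives were DESeq2 1.42.0, RLE scaling, no filter, 12 libraries only, each pKO or WT line alone, lines as replicates, a replicate block and leaving out each library. Leaving out chromosome 11 genes or the largest unnamed row was added after seeing the data. Knockdown libraries of the series were not used here. Some genes that the rule named are not reported here.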

Additional observations from a re-analysis of the deposited data

Results flagged for a closer look

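Among 192 groups of 6 libraries (96 named genes in WT and in pKO), 16 had an extreme library set off from the rest by Dixon's test at the 95% level, where chance alone flags about 1 group in 20. In WT, replicate 2 of WT1 was the high library for T (19.7 CPM), Nkx1-2 (10.1), Aplnr (4.48), Dkk1 (0.66) and Evx1 (0.0734, a single count). Replicate 1 of WT1 was high for Tfap2b (4.98) and Id3 (14.1), and replicate 3 of WT1 for Lrrc31 (4.76) and Gm2022 (0.378). In pKO, replicate 1 of pKO2 was high for Tfap2b (29.8), Insm1 (18.4), Golga4 (41.5) and 4933427D06Rik (1.36), replicate 3 of pKO2 for Platr11 (0.371), and replicate 2 of pKO1 for Dusp6 (108) and Bgn (39.0).

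For 19 called genes of the locus, Nodal, streak, endoderm and caudal lists, the pKO effect differed between NPCs and serum in edgeR's interaction test. These genes were taken because they were called in NPCs, and the test reuses the same NPC libraries. That choice favours differences above 0, so the values describe these genes only. For Evx1 the value rests on 1 count in WT NPCs. The effect in NPCs minus that in serum, in log2 units, was 3.91 for Eomes, 2.38 for Nodal, 1.55 for Tdgf1, 2.00 for Lefty1 and 1.82 for Lefty2. In the streak list it was 4.85 for T, 8.08 for Evx1, 3.69 for Wnt3, 5.51 for Fgf8 and 5.32 for Sp5. In the endoderm list it was 4.58 for Foxa2, 5.54 for Sox17, 2.65 for Gata4, 2.96 for Gata6 and 1.76 for Trh, and in the caudal list 6.85 for Cdx2, 3.88 for Hoxa5, 4.65 for Hoxb1 and 4.19 for Nkx1-2.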

How the results depend on the processing

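Eomes stayed above WT and past the threshold under every alternative run except lines as replicates (2.71, adjusted p = 0.266), at 2.46 to 2.97 when 1 library was left out. Platr11 behaved alike (-6.08, adjusted p = 0.213 with lines as replicates; -7.29 to -6.02 with 1 library left out). The count of 1168 calls became 1897 with DESeq2, 363 with WT1 as the only control, 766 with WT2 as the only control, 712 with pKO2 only, 0 with lines as replicates and 631 without chromosome 11 genes (the last with fewer genes tested). Leaving out 1 library gave 525 to 1921 calls. The same NPC contrast taken from the fit over 45 libraries called 2699 of 15679 genes, 1242 as rises and 1457 as falls. Replicate numbers were not taken to pair libraries, but the values do not settle whether they do. Of 18 same-number pairs 9 correlated over 0.1 (-0.346 to 0.353), and 7 of 12 libraries were closest to their own number. The replicate block gave 1383 calls, with 2.74 for Eomes. For pKO against pInv the count of 127 became 476 with DESeq2 and 256 with the replicate block. For WT2 against WT1 the count of 15 became 168 and 50, and for pKO2 against pKO1 DESeq2 called 865. The NPC minus serum count of 630 became 981 with DESeq2 and 1600 with the replicate block, and the NPC minus 2i count became 1162 with the block. Dnmt3l turned to -0.73 with pKO1 only. Of 90 other called named genes, 52 kept the call whichever library was left out and 38 lost it in at least 1 fit, 6 to 34 per fit. Where not stated, the cause was not tested. Depth limits genes under about 1 CPM, such as Evx1.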
